A study of Mus musculus with 12 samples.

Results

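The MaLR group (mammalian apparent LTR retrotransposons) is made up of the ORR1, MT and MLT1 repeat families. Its RNA was examined in mouse embryonic stem cells with and without depletion of Setdb1. Members were all families of the repeat table named ORR1, MTA to MTE, MT-int or MLT1, which gave 101 of 1217 families, namely 25 ORR1, 20 MT and 56 MLT1. The MT2 families, which include MT2_Mm, the LTR of the retrovirus MERVL, were not members. A name ending in -int denotes the internal part between the LTRs, and 52 members were internal parts and 49 were LTRs. A filter on low values kept families with a mean on the deposited log2 scale that exceeded the table's minimum by 0.5 or more. It left 1097 families, among them 93 members: all 25 ORR1, all 20 MT and 48 MLT1. The 8 members left out were MLT1 internal parts with between 0 and 18 reads over all 12 libraries, and MLT1H2-int with 39 reads and MLT1H1-int with 43 reads lay just inside the filter.

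MaLR elements are non-autonomous relatives of the class III, or ERVL-type, endogenous retroviruses, and most genomic copies are solitary LTRs or fragments. MLT1 is the oldest branch and is shared widely among placental mammals, whereas ORR1 and MT spread in the rodent lineage, with ORR1A and MTA among their youngest subfamilies in mouse. MT and ORR1 LTRs are known to act as promoters and first exons in mouse oocytes and early embryos. SETDB1, a histone H3K9 methyltransferase that works with TRIM28, is known in embryonic stem cells mainly for silencing class I and class II retroviruses such as IAP.

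The cells were E14, an established mouse embryonic stem cell line of 129/Ola background kept on gelatin without feeders. The medium was either serum plus LIF, for which the labels use the word primed, or 2i (labelled naive), which adds PD0325901 (a MEK inhibitor) and CHIR99021 (a GSK3 inhibitor) to N2, B27 and LIF. All cells carried a lentiviral pLKO.1 vector with an shRNA, either against Setdb1 (knockdown) or scrambled (shScr, control). Puromycin at 1 µg/ml was given from 48 hours after infection, and cells were harvested on completing 3 days of selection. Both vectors in both media made 4 groups, each with 3 libraries of ribosome-depleted RNA numbered 1 to 3. The labels give 1 cell line, no second shRNA against Setdb1 and no rescue, so loss of Setdb1 and other effects of that shRNA cannot be told apart. Separate cultures are not stated for the replicates, and p-values then cover only library-to-library spread, which may be technical.

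Libraries held 4407665 to 8962913 reads in repeat families and 4821181 to 15509401 reads in genes, with the lowest gene total in 2i knockdown replicate 3. Setdb1 stood at 2959, 2237 and 1587 normalised reads in the serum controls and at 418, 379 and 409 after serum knockdown, and at 3607, 2724 and 2253 in the 2i controls and 837, 610 and 340 after 2i knockdown. Its log2 change was −2.33 (limma adjusted p = 0.00219) in serum and −2.24 (adjusted p = 0.00173) in 2i. Of 8 embryonic stem cell markers, 7 had reads in all libraries, while Utf1 was at 0 in 2i knockdown replicate 3 and at 15.3 to 38.3 normalised reads in 2i controls. The sum of the 8 was 35600 to 59510 normalised reads per library, most of it Pou5f1, Tdgf1 and Zfp42. IAPEz-int, a known SETDB1 target, had a mean 3.75-fold higher in serum and 17.1-fold higher in 2i after knockdown. Structural RNA and tRNA families took 15.6% to 69.5% of repeat reads. The size factors built into the deposited repeat values differed from those given by the median of ratios of the same table. On the deposited scale the median of all 1097 families was itself shifted, by 0.24 for knockdown in 2i and by −0.52 for 2i against serum in control cells (log2). Whether scaling or a broad change in repeat RNA gave these shifts was not tested. Changes are therefore given on the deposited scale and also after centring each library on the median of its kept families.

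MaLR families took 1.14% to 3.85% of repeat reads, or 3.74% to 5.38% of those outside structural RNA and tRNA. Summed over the libraries, ORR1 made up 47.9% of MaLR reads, MT 42.4% and MLT1 9.73%, and the 12 ORR1A and MTA families alone made up 35.3%. The members with most reads were ORR1A0-int (100044 reads over all libraries), ORR1E (86265) and ORR1D1 (85949) in ORR1. In MT they were MTD (185959), MTA_Mm-int (147357) and MTC (109905), while MT-int had 3961. In MLT1 they were MLT1A0 (24128), MLT1B (23800) and MLT1D (22356), and MLT1F-int led the internal parts with 1281. Read totals are not divided by the length or number of genomic copies, so they do not rank families by transcription. RNA started in a family's own LTR and RNA of other transcripts that carry a copy are counted alike, and reads shared by similar families may have been split in ways the sources used here do not describe. In bulk RNA, fewer expressing cells and less RNA per cell cannot be told apart.

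On the deposited scale, Setdb1 knockdown in 2i was accompanied by higher RNA of ORR1A0 and ORR1A1, young ORR1 subfamilies, and of a few older families. MaLR families as a group were called less often than all families. Of the 93 members, 6 rose (limma, adjusted p under 0.05) and 0 fell, against 114 rises (10.4%) and 1 fall (0.0912%) among all 1097 families. ORR1 supplied 5 of the 6 rises (ORR1A0, ORR1A1, ORR1A1-int, ORR1B2-int and ORR1C1-int, out of 25), MLT1 supplied MLT1E3 out of 48, and 0 of 20 MT families passed. After centring, 67 families of the table rose (6.11%) and 25 fell (2.28%), and the members that rose were ORR1A0 and ORR1A1-int. Quantile normalisation gave 2 rises, ORR1A1-int (adjusted p = 0.0458) and ORR1C1-int (adjusted p = 0.0451), and 2 falls, MTB and MLT1A1. The number of rises among members was 2 or 3 without any 1 of the 2i controls and 3 without 2i knockdown replicate 1. Shares over all families are not given for the quantile fit or for fits without 1 library.

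ORR1A0, an LTR family, had 2531, 1867 and 1617 normalised reads in the 2i controls and 7599, 5583 and 3838 after knockdown, values for 3 libraries being given throughout in the order of replicates 1, 2 and 3. All knockdown libraries lay above all controls. The mean was 2.83-fold higher, with a log2 change of 1.46 (SE 0.32, adjusted p = 0.00535), or 1.11 after centring (adjusted p = 0.0314). Its internal part, ORR1A0-int, had 7446, 4582 and 3422 normalised reads in controls and 26020, 12750 and 4845 after knockdown. Here the groups overlapped, because knockdown replicate 3 lay below control replicate 1, and the log2 change of 1.26 (SE 0.49) did not pass (adjusted p = 0.128). Without 2i knockdown replicate 3 it was 1.89 and passed (limma, adjusted p = 0.00539). ORR1A0-int passed in 3 of 23 alternative settings, the others being the fits with blocks.

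ORR1A1 LTRs had 1706, 1457 and 1434 normalised reads in the 2i controls and 4641, 2714 and 2125 after knockdown. The groups were apart, with a 2.06-fold higher mean and a log2 change of 0.96 (SE 0.27, adjusted p = 0.0303). ORR1A1-int had 2083, 1780 and 1454 normalised reads in controls and 13160, 5623 and 3062 after knockdown. Every knockdown library exceeded every control, but replicate 1 exceeded the other knockdown libraries as well. The mean was 4.11-fold higher, and 2.45-fold higher without knockdown replicate 1. The log2 change was 1.79 (SE 0.41, adjusted p = 0.00876), or 1.43 after centring (adjusted p = 0.0273). ORR1A0 and ORR1A1-int were called in each fit that left out 1 of the 12 libraries, and each passed in 22 of all 23 alternative settings. ORR1A0 missed the threshold after quantile normalisation (adjusted p = 0.0579) and ORR1A1-int without a filter on low values (adjusted p = 0.0578). ORR1A1 lost its call without any 1 of the 2i controls and without 2i knockdown replicate 1 or 2, with adjusted p between 0.0523 and 0.109.

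**Figure D1:**
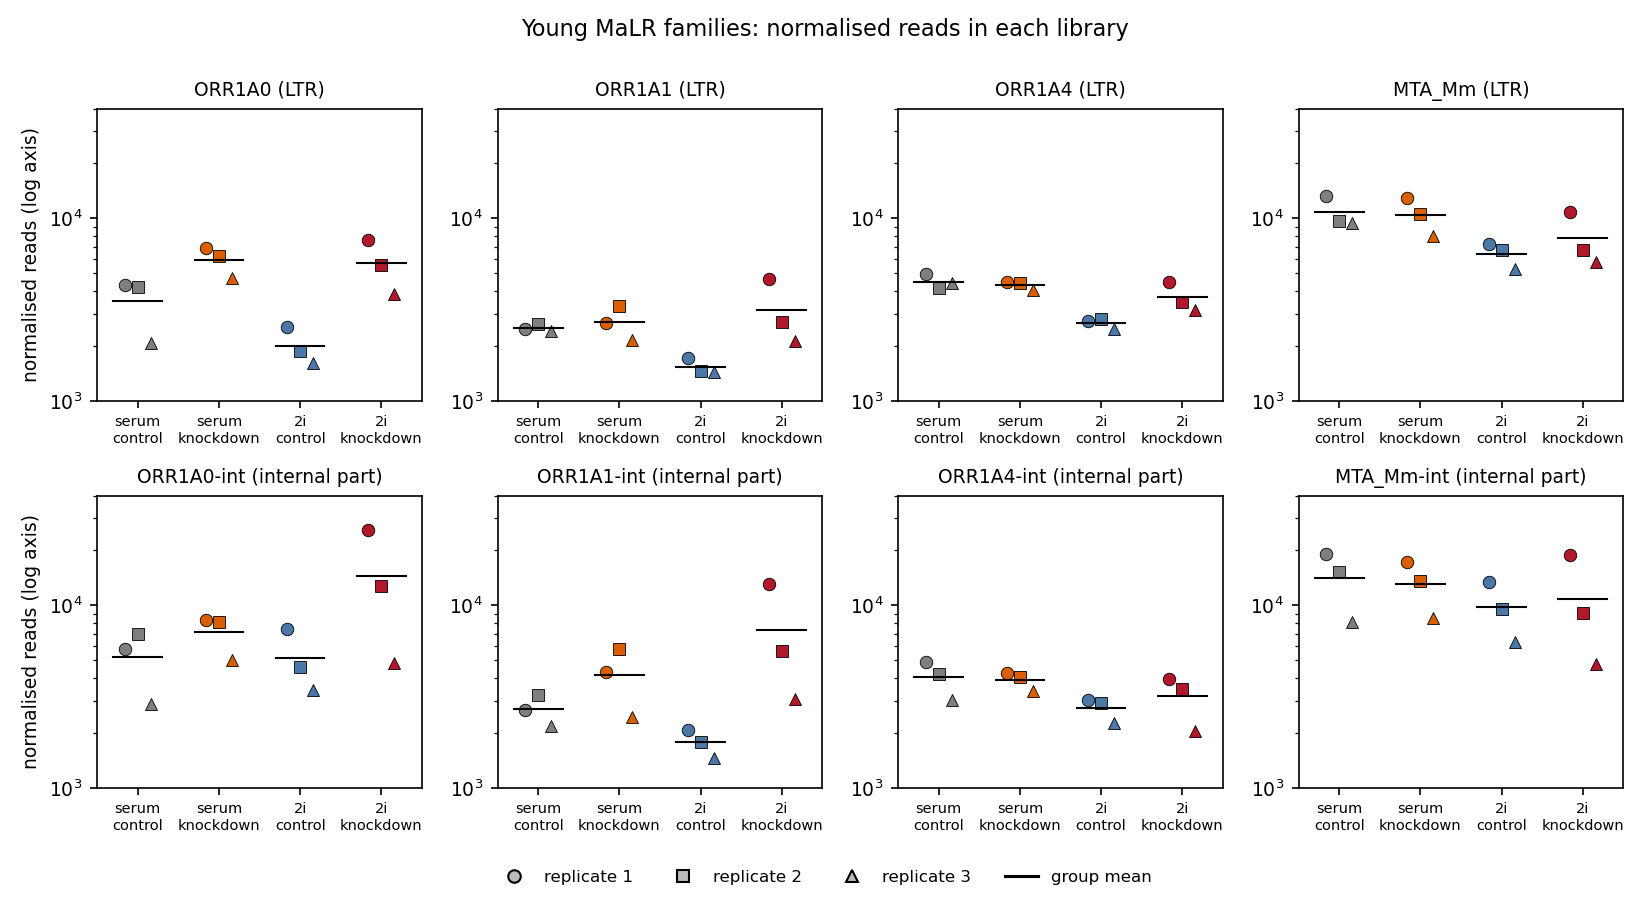
Normalised reads (log axis) of 4 LTR families, top, and of their internal parts, bottom, in each library of the 4 groups, with symbols for replicates 1 to 3 and a line at the group mean. In 2i, knockdown libraries of ORR1A0, ORR1A1, ORR1A4 and ORR1A1-int lie above all controls, while both MTA_Mm families overlap.

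The remaining ORR1A families did not pass in 2i. ORR1A2 had 4249, 4681 and 5065 normalised reads in controls and 7854, 6060 and 5878 after knockdown (log2 change 0.49, adjusted p = 0.186). ORR1A4 had 2722, 2823 and 2487 in controls and 4461, 3486 and 3157 after knockdown (log2 change 0.45, adjusted p = 0.204). In both families the groups were apart on the deposited scale. After centring the log2 changes were 0.14 for ORR1A2 and 0.10 for ORR1A4, and quantile normalisation turned that of ORR1A4 to −0.09. ORR1A3 LTRs stood at a log2 change of 0.39 (−0.12 after quantile normalisation), ORR1A2-int at 0.38 (−0.18 after quantile normalisation) and ORR1A4-int at 0.17 (−0.19 after centring), with adjusted p between 0.270 and 0.788. ORR1A3-int had 912, 993 and 725 normalised reads in controls and 5323, 1399 and 1709 after knockdown. All knockdown libraries were higher, replicate 1 by far the most, and the log2 change of 1.40 (SE 0.44) lay just above the threshold (adjusted p = 0.0509). It passed without either of 2i knockdown replicates 2 and 3, and without either of serum knockdown replicates 2 and 3 (adjusted p between 0.0211 and 0.0408). The mean was 3.21-fold higher, and 1.77-fold higher without knockdown replicate 1.

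Beyond ORR1A, the older ORR1 letters held internal parts that rose in 2i. ORR1B2-int had 258, 247 and 208 normalised reads in controls and 499.5, 341 and 478 after knockdown, with no overlap (1.85-fold, log2 change 0.82, SE 0.23, adjusted p = 0.0361). ORR1C1-int had 193, 203 and 177 in controls and 542, 294 and 355 after knockdown, again without overlap (2.08-fold, log2 change 0.93, SE 0.25, adjusted p = 0.0275). Neither passed after centring (adjusted p = 0.111 and 0.0573). Both lost their call without any 1 of the 2i controls and without 2i knockdown replicate 1, ORR1B2-int also without 2i knockdown replicate 3, serum control replicate 1 or serum knockdown replicate 1, with adjusted p between 0.0537 and 0.121. All 25 ORR1 families had a positive log2 change on the deposited scale, as did 773 of the 1097 families tested, and 18 of the 25 were positive after centring. The centred median log2 change was 0.11 for ORR1, beside −0.12 for all families tested. The groups did not overlap and were higher after knockdown in 14 of 25 ORR1 families, against 22.3% of all families tested.

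MT families, whose LTRs drive many oocyte transcripts, did not pass in 2i. Their median log2 change was 0.26, beside 0.24 for all families, and 5 of 20 had higher knockdown groups without overlap, a share near the 22.3% of all families. MTA_Mm had 7230, 6738 and 5266 normalised reads in controls and 10880, 6710 and 5749 after knockdown. Only replicate 1 of the knockdown exceeded the highest control. Its log2 change was 0.24 (SE 0.28, adjusted p = 0.704). It was −0.12 after centring, where the median of all families tested was also −0.12. Quantile normalisation gave −0.26 and median-of-ratios size factors −0.08 for MTA_Mm. MTA_Mm-int had 13440, 9551 and 6272 normalised reads in controls and 18760, 9074 and 4782 after knockdown, so that the knockdown group held both the highest and the lowest value. The log2 change of MTA_Mm-int was 0.01 (SE 0.45, adjusted p = 0.997), and −0.35 after centring. MTD-int had 656, 982 and 572 in controls and 1897, 1254 and 920 after knockdown, which overlap, with a 1.84-fold higher mean.

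MLT1 families, the oldest branch, had a median log2 change of 0.28 in 2i, and 8 of 48 were higher after knockdown without overlap, a share below the 22.3% of all families. MLT1E3 had 126, 113 and 86.3 normalised reads in controls and 220, 205 and 318 after knockdown. The groups were apart by 2.29-fold in the mean (log2 change 1.04, SE 0.28, adjusted p = 0.0239), but the family did not pass after centring (log2 change 0.69). It lost its call without 2i control replicate 2, without 2i control replicate 3 or without 2i knockdown replicate 3, with adjusted p of 0.0522, 0.0882 and 0.0718. The MLT1 families with the lowest values were MLT1C-int (log2 change −0.68), MLT1F1-int (−0.50), MLT1A1-int (−0.36) and MLT1A1 (−0.23), none of which passed (adjusted p = 0.456 to 0.734). The first 3 of these are internal parts with 173 to 280 reads over all libraries.

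**Figure D2:**
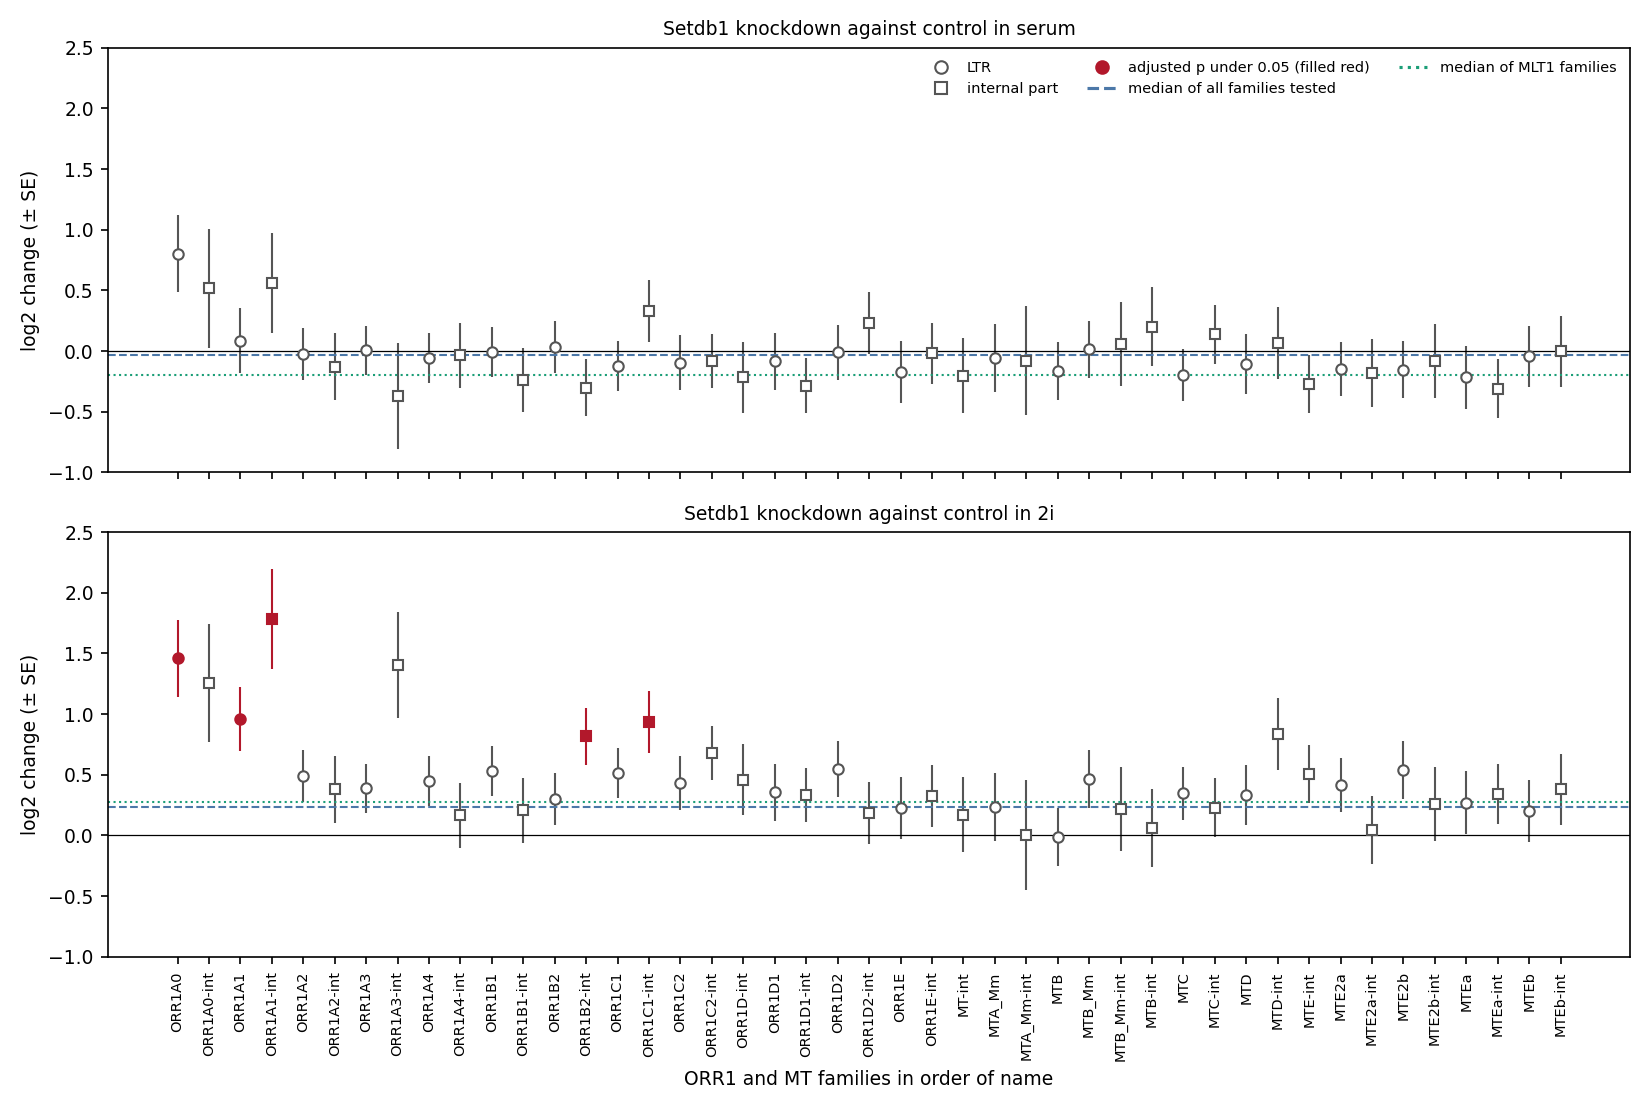
Log2 change after Setdb1 knockdown (± SE) of the 45 ORR1 and MT families in serum, top, and in 2i, bottom, in order of name. Circles are LTRs, squares are internal parts, red fill marks an adjusted p under 0.05, and lines mark the medians of all families tested and of MLT1. The 5 filled families are all ORR1 in 2i.

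In serum, 0 of the 93 members passed after Setdb1 knockdown (limma without pairing of replicate numbers), and voom on recovered reads called 0. An unadjusted limma p under 0.05 was found for 3 members and for 103 of all 1097 families. Among all 1097 families, 36 rose (3.28%) and 1 fell (0.0912%). After centring 0 members passed as well, against 3.46% of all families higher and 0.0912% lower. The median log2 change of MaLR families was −0.09, beside −0.03 for all families. It was −0.03 for ORR1, −0.10 for MT and −0.19 for MLT1. ORR1A0 had the largest value, with 4332, 4215 and 2067 normalised reads in controls and 6902, 6222 and 4692 after knockdown. All knockdown libraries lay above all controls, which held for 1 member out of 93 and for 9.75% of all families. The mean was 1.68-fold higher, and 1.39-fold higher without control replicate 3, which was the lowest library. The log2 change was 0.80 (SE 0.32, adjusted p = 0.329) in the main fit, which had no term for replicate number. With the replicate number as a block, the adjusted p was 0.0311, and 5.56% of all families rose in that fit. That block covers all 12 libraries, so it also pairs the 2i libraries and the media. A block within each medium gave an adjusted p of 0.0350, and 6.2% of all families rose.

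The next highest values in serum were those of ORR1A1-int, ORR1A0-int and ORR1C1-int, and none passed. ORR1A1-int had 2670, 3223 and 2174 normalised reads in controls and 4301, 5747 and 2458 after knockdown, with overlap (log2 change 0.56, SE 0.41, adjusted p = 0.924). ORR1A0-int had 5781, 6927 and 2886 in controls and 8289, 8137 and 5037 after knockdown, with overlap (log2 change 0.52, SE 0.49, adjusted p = 0.924). ORR1C1-int stood at 0.33 (adjusted p = 0.924). The LTRs of ORR1A1, ORR1A2, ORR1A3 and ORR1A4 had log2 changes of 0.09, −0.03, 0.01 and −0.06, and both MTA_Mm families stood at −0.05 and −0.08, all within their SE. Quantile normalisation turned ORR1A1 to −0.08 and ORR1A3 to −0.14, and centring turned ORR1A3 to −0.05. The internal parts ORR1A2-int, ORR1A3-int and ORR1A4-int stood at −0.13, −0.37 and −0.03, and none passed.

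At the low end in serum were MLT1 families. MLT1F-int had 175, 162 and 146 normalised reads in controls and 86.6, 106 and 78.9 after knockdown, which did not overlap. Its log2 change of −0.71 (SE 0.30) did not pass (adjusted p = 0.379). MLT1C-int (−1.09, SE 0.48, adjusted p = 0.463) and MLT1G3-int (−0.87, SE 0.43, adjusted p = 0.592) rest on 225 and 175 reads over all libraries. MLT1H1 stood at −0.57 (adjusted p = 0.884). In all, 4 of the 93 members were lower after knockdown without overlap, against 4.83% of all families.

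The difference between the knockdown changes (2i minus serum) was tested for each family with limma. It passed in 0 of the 93 members, and voom called 0. An unadjusted limma p under 0.05 was found for 11 members and for 104 of all 1097 families. Of all families, 2 passed (0.182%). The median difference was 0.48 for MaLR families and 0.31 for all families on the deposited scale, and 0.19 and 0.01 after centring. The largest was that of ORR1A3-int at 1.77 (SE 0.62, adjusted p = 0.490), followed by MLT1F-int at 1.46 (adjusted p = 0.423), MLT1H1-int at 1.30 and MLT1I-int at 1.24. MLT1H1-int had 0 reads in the 2i controls and MLT1I-int had 1, so no fold is given for them. The lowest values were −0.50 for MLT1F1-int, −0.46 for MLT1A1-int, −0.41 for MLT1N2 and −0.31 for MLT1B-int. The rises of ORR1A0 and ORR1A1-int in 2i are thus not shown to differ from their values in serum.

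The younger ORR1A and MTA families, 12 in number, were set against the 48 kept MLT1 families. The median log2 change of the young set exceeded that of MLT1 by 0.16 after knockdown in serum and by 0.19 after knockdown in 2i. For the difference of those changes the gap was 0.08, for 2i against serum 0.14 in control cells and 0.05 in knockdown cells. Each of these lay below 0.295. That is the SD between replicates of a single library's young-minus-MLT1 mean (log2), pooled within groups without regard to the pairing of serum libraries. It is not the standard error of a gap between medians of changes, and no gap was tested. The gap in 2i depended on single libraries, at 0.32 without 2i control replicate 1, 0.07 without 2i control replicate 2 and 0.30 without 2i control replicate 3. Leaving out each library gave 0.08 to 0.24 in serum, −0.08 to 0.18 for the difference of the changes, and −0.08 to 0.23 and −0.01 to 0.14 for medium in control and knockdown cells. Quantile normalisation gave 0.05 in 2i. The young set was not uniform. In 2i its ORR1A members had a median log2 change of 0.72 and its MTA members 0.12, and values ranged from 0.01 to 1.79.

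Ratios of reads within a library do not depend on any size factor. ORR1A reads per MLT1 read were 2.38, 1.57 and 2.00 in the 2i controls and 4.16, 3.16 and 2.35 after knockdown, so that replicate 3 of the knockdown lay just under control replicate 1. In serum they were 1.80, 2.61 and 1.49 in controls and 2.43, 2.53 and 2.22 after knockdown, with overlap. MTA reads per MLT1 read lay between 0.762 and 1.66 in all libraries, and the groups overlapped in both media. Within ORR1A, ORR1A0 LTR reads per ORR1A4 LTR read were 0.872, 1.02 and 0.469 in serum controls and 1.54, 1.40 and 1.16 after knockdown. The same ratio was 0.930, 0.661 and 0.650 in 2i controls and 1.70, 1.60 and 1.22 after knockdown. ORR1A0 was therefore higher relative to ORR1A4 in all knockdown libraries than in any control of the same medium. This pair was chosen after its values were seen.

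**Figure D3:**
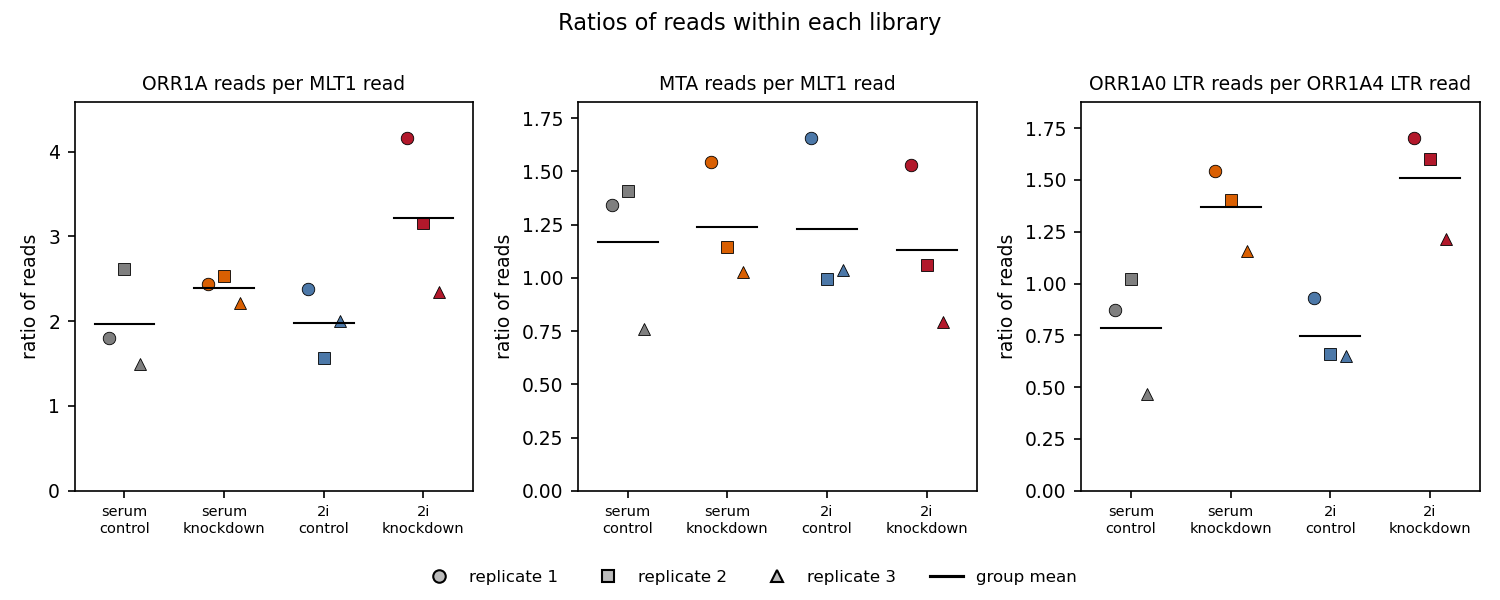
Reads of ORR1A per MLT1 read, of MTA per MLT1 read and of the ORR1A0 LTR per ORR1A4 LTR read within each library, with a line at the group mean. Knockdown libraries are above the controls of the same medium without overlap for ORR1A0 per ORR1A4, and MTA per MLT1 lies between 0.762 and 1.66 throughout.

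The composition of MaLR RNA is also free of size factors. ORR1 families held 45.8%, 43.8% and 47.1% of MaLR reads in 2i controls and 54.3%, 52.9% and 50.01% after knockdown, with all knockdown libraries above all controls. MT families held 43.1% to 44.7% in 2i controls and 37.7% to 40.3% after knockdown, without overlap. MLT1 held 9.56% to 11.7% and 7.96% to 9.74%, which overlap. In serum the ORR1 share was 43.2% to 48.2% in controls and 46.2% to 49.0% after knockdown. As shares of a fixed whole, a higher ORR1 share lowers the others.

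By subfamily letter, the median log2 changes in 2i knockdown were 0.72 for ORR1A, 0.42 for ORR1B, 0.60 for ORR1C, 0.36 for ORR1D and 0.27 for ORR1E. In MT the order ran the other way over the first 4 letters, with 0.12 for MTA, 0.14 for MTB, 0.29 for MTC and 0.59 for MTD, and 0.34 for MTE. Each letter of MT but MTB and MTE rests on 2 families. In MLT1 they ranged from −0.22 for MLT1C to 0.69 for MLT1I, with 0.13 for MLT1A and 0.52 for MLT1H. Letters have 1 to 10 families each, and these medians are descriptions without a test.

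LTR and internal part of the same family could be paired for 40 families, 12 of ORR1, 9 of MT and 19 of MLT1. The internal part had the higher log2 change in 17 of 40 pairs for knockdown in 2i and in 21 of 40 in serum. Among ORR1 pairs it was 6 of 12 in each medium. ORR1A1 was an example in which the internal part gained on the LTR, with 1.01 to 1.22 internal reads per LTR read in 2i controls and 1.44 to 2.84 after knockdown, without overlap.

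On the deposited scale, many MaLR families of all 3 branches were lower in 2i than in serum, and the count depended on scaling. The MaLR share of reads outside structural RNA and tRNA, which needs no size factor, overlapped between media. It was 4.28% to 4.88% in serum controls and 3.88% to 5.38% in 2i controls. In control cells, 36 of 93 members passed as lower in 2i and 0 as higher, against 182 lower (16.6%) and 6 higher (0.547%) of 1097 families. By branch, 15 of 25 ORR1, 9 of 20 MT and 12 of 48 MLT1 families fell. The groups were apart and lower in 2i in 56 of 93 members, against 39.1% of all families, and apart and higher in 0 of 93, against 2.46%. The median log2 difference was −0.74 for MaLR and −0.52 for all families. After centring it was −0.33 and −0.11, 8 members were called, all lower, and the table had 18 higher (1.64%) and 46 lower (4.19%) families. Those 8 were ORR1A3-int, ORR1B2-int, ORR1C2-int, ORR1D-int, ORR1E-int, MTD-int, MTE-int and MLT1A0. Quantile normalisation and median-of-ratios size factors each gave 2 calls. On the deposited scale the count was 1 without any 1 of serum control replicates 1 and 3 and 2i control replicates 1 and 3. It was 21 without serum knockdown replicate 1. For these other scalings and fits without 1 library, shares over all families are not given. The medians of the branches lay close together at −0.73 for ORR1, −0.73 for MT and −0.75 for MLT1.

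ORR1A3-int gave the largest difference between media. It had 4350, 8657 and 4842 normalised reads in serum controls and 912, 993 and 725 in 2i controls, so that the lowest serum library was far above the highest 2i library. Its mean was 6.79-fold higher in serum, with a log2 difference of −2.67 for 2i minus serum (SE 0.44, adjusted p = 0.00541), or −2.27 after centring (adjusted p = 0.0132). It passed in all 23 alternative settings. Its own LTR, ORR1A3, had 2223, 1855 and 2581 in serum controls and 1301, 1489 and 1455 in 2i controls, a log2 difference of −0.63 (adjusted p = 0.0435) that did not pass after centring (−0.22, adjusted p = 0.368). Internal reads per LTR read of ORR1A3 were 1.88 to 4.67 in serum controls, 0.498 to 0.701 in 2i controls and 0.817 to 2.59 after 2i knockdown.

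Of the other ORR1A and MTA families, ORR1A4 fell (−0.74, adjusted p = 0.0280) and the rest did not pass. ORR1A0 stood at −0.76 (adjusted p = 0.0944), ORR1A1 at −0.71 (adjusted p = 0.0731), ORR1A0-int at 0.00 (adjusted p = 0.993) and ORR1A1-int at −0.59 (adjusted p = 0.303). ORR1A2 stood at −0.58 (adjusted p = 0.0721), ORR1A4-int at −0.55 and ORR1A2-int at −0.30, the last turning to 0.11 after centring. MTA_Mm stood at −0.75 (adjusted p = 0.0733) and MTA_Mm-int at −0.52 (adjusted p = 0.415). With median-of-ratios size factors MTA_Mm-int, ORR1A1-int, ORR1A2 and ORR1A4-int turned to 0.10, 0.02, 0.03 and 0.06. Among ORR1B to ORR1E, 12 of 15 families fell, namely ORR1B1, ORR1C1, ORR1C2, ORR1D1 and ORR1D2 and the internal parts of ORR1B1, ORR1B2, ORR1C1, ORR1C2, ORR1D, ORR1D1 and ORR1E. The 9 MT families that fell were MTB_Mm, MTC, MTD, MTD-int, MTE-int, MTE2a, MTE2b, MTEa-int and MTEb-int. ORR1D-int had 1004, 770.5 and 1117 normalised reads in serum controls and 371, 424 and 290.2 in 2i controls, a 2.66-fold difference in the mean (−1.36, SE 0.29, adjusted p = 0.0159; −0.95 after centring, adjusted p = 0.0246). MTD-int, which had 2202, 1424 and 1824 in serum controls, was 2.47-fold higher there than in 2i controls (−1.29, SE 0.30, adjusted p = 0.0164; −0.88 after centring, adjusted p = 0.0263).

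In MLT1, MLT1A0 had 2805, 2176 and 2817 normalised reads in serum controls and 1391, 1622 and 1045 in 2i controls, without overlap (−0.94, SE 0.24, adjusted p = 0.0228; −0.54 after centring, adjusted p = 0.0435). MLT1H1 had the largest difference of the branch, with 223, 141 and 334 in serum controls and 40.8, 114 and 86.3 in 2i controls (−1.32, SE 0.35, adjusted p = 0.0244), which did not pass after centring (adjusted p = 0.108). Of the 12 MLT1 families that fell, 11 were LTRs (MLT1A, MLT1A0, MLT1B, MLT1C, MLT1E1A, MLT1E3, MLT1F, MLT1F1, MLT1G3, MLT1H1 and MLT1H2), and MLT1F-int was the internal part. The highest values were those of low-count internal parts, MLT1A1-int (0.61, adjusted p = 0.218), MLT1F1-int (0.18), MLT1J1-int (0.15) and MLT1G-int (0.12). With MLT1H1-int set to its bound of 3 reads over the 2i controls, the MLT1 median was −0.76.

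**Figure D4:**
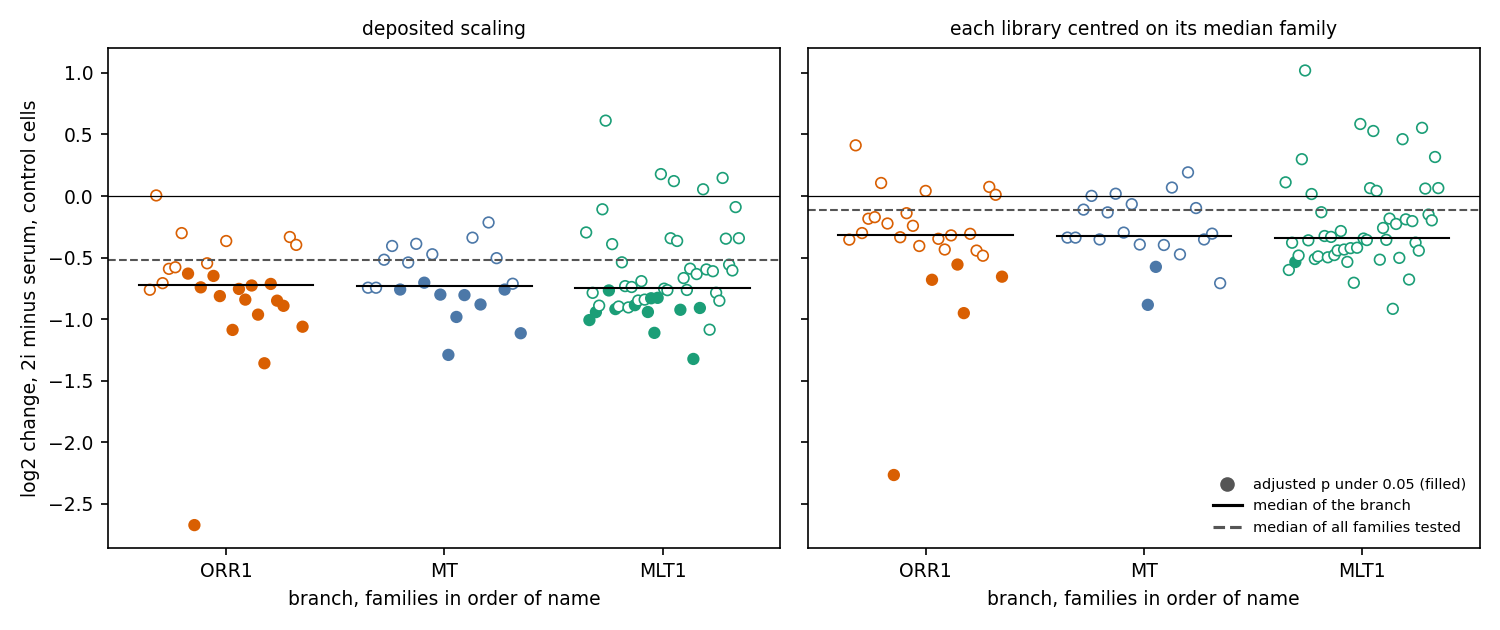
Log2 difference of 2i minus serum in control cells for each kept MaLR family by branch, on the deposited scale (left) and after centring each library on its median family (right). Filled points have an adjusted p under 0.05, solid lines are branch medians and the dashed line is the median of all families, which is −0.52 before and −0.11 after centring.

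In knockdown cells, 0 of 93 members passed between media (limma), against 6 higher families (0.547%) and 0 lower in the table, and voom called 0 members. An unadjusted limma p under 0.05 was found for 6 members and for 122 of all 1097 families. The median was −0.24 for MaLR and −0.29 for all families. The highest values were MLT1J1-int at 1.04, ORR1A0-int at 0.75, MLT1H1-int at 0.66 and ORR1A1-int at 0.63. The lowest were MLT1A-int at −0.91, ORR1A3-int at −0.90 (adjusted p = 0.425), MLT1F1 at −0.84 (adjusted p = 0.131) and MLT1E1A at −0.79. MLT1F1 had 540, 661 and 506 normalised reads in serum knockdown and 371, 286 and 270.4 in 2i knockdown, without overlap. It passed after centring (−0.73, adjusted p = 0.0426), where 0.638% of all families were higher and 0.0912% lower. In 5 of 93 members the groups were apart and lower in 2i, against 9.39% of all families. Without 2i knockdown replicate 1, 5 members passed as lower in 2i, among them ORR1A3-int (adjusted p = 0.0271), MLT1F1 (0.0382) and MLT1E1A (0.0466). The share of all families that passed in that fit is not given. The comparisons share libraries, the 2i controls with knockdown in 2i and the serum controls with knockdown in serum, so a low control value enters both.

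Markers of 2-cell-like cells, a rare state in which MERVL is transcribed, were low in the 2i controls, as ORR1A3-int was. Of 12 markers listed, 10 were in the gene table and 9 were tested. In control cells 6 of them fell in 2i (Zscan4c, Zscan4d, Zscan4f, Gm5662, Dub1a and Usp17l5), against 1.88% of all genes. Their summed level over 10 genes was 4612 to 24050 normalised reads in serum controls, 3331 to 15710 in serum knockdown, 38.7 to 243 in 2i controls and 640 to 6001 in 2i knockdown. Zscan4c was at 34.7, 7.59 and 0 normalised reads in 2i controls and at 802, 12.2 and 274 after knockdown. After knockdown in 2i, 2 of the 9 rose (Gm5662 and Dub1a), against 1.21% of all genes, and replicate 1 had the highest sum. MERVL-int, a relative of the MaLR, had 91520, 134100 and 93600 normalised reads in serum controls, 6636, 5193 and 2285 in 2i controls and 88700, 7284 and 19650 after 2i knockdown. In ORR1A3-int, MERVL-int and Zscan4c alike, 2i knockdown replicate 1 stood above the other libraries of its group. The median of all kept repeat families was also highest there, at 8.13 against 7.84 and 7.67 (deposited log2 scale). The part of such cells in the ORR1A3-int values was not tested.

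**Figure D5:**
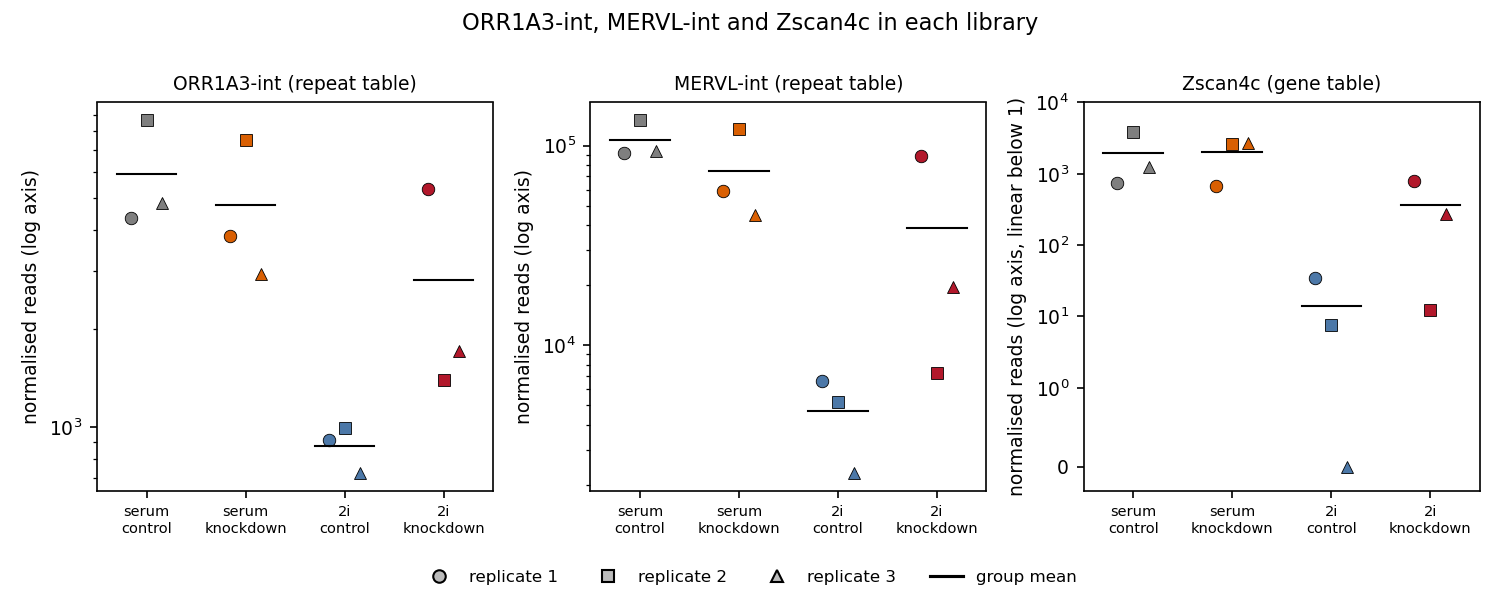
Normalised reads of ORR1A3-int and MERVL-int (repeat table, log axes) and of Zscan4c (gene table, log axis, linear below 1) in each library, with a line at the group mean. The 2i controls are the lowest libraries of ORR1A3-int and MERVL-int, for Zscan4c they overlap with 2i knockdown replicate 2, and replicate 1 is the highest of the 2i knockdown libraries.

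Trophoblast markers were listed as another cell type, and 7 of 8 were in the gene table. They summed to 1119 normalised reads in 2i knockdown replicate 1, to 196 and 22.1 in replicates 2 and 3, and to 151 to 205 in 2i controls. Nearly all of the 1119 came from the keratins Krt8 (427) and Krt18 (652), which other epithelial cells also express. Of the transcription factors that define trophoblast, Eomes had 19.2 normalised reads in that library and 31.1, 84.8 and 62.2 in 2i controls, and Cdx2 had 12.3 there and 13.0, 4.83 and 14.1 in 2i controls. Hand1 and Gata3 were at 0.769 and 8.46 in that library, and Elf5 was at 0 in all libraries. None of the 3 trophoblast genes tested passed in any comparison. The same library had the highest level in its group of ORR1A0, ORR1A0-int, ORR1A1, ORR1A1-int and ORR1A3-int. This was not particular to ORR1A. MTA_Mm (10880 against 6710 and 5749) and MTD (17190 against 12790 and 11750) were also highest there, though MLT1E3 was not (220 against 205 and 318). The median of all kept families was 8.13 in that library on the deposited log2 scale, against 7.84 and 7.67 in replicates 2 and 3. Without 2i knockdown replicate 1, the fold of the 2i knockdown mean over the control mean was 2.35 instead of 2.83 for ORR1A0. It was 1.71 instead of 2.82 for ORR1A0-int and 1.58 instead of 2.06 for ORR1A1. It was 2.45 instead of 4.11 for ORR1A1-int and 1.77 instead of 3.21 for ORR1A3-int.

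Genes linked to the silencing of retroelements, by SETDB1 or by other routes such as DNA methylation, were listed. Of the 34, 33 were in the table and tested. After knockdown in serum 1 of the 33 passed, Setdb1, which fell, where 0.0483% of all genes fell and 0.601% rose. After knockdown in 2i Setdb1 fell and Atf7ip2, a paralogue of the SETDB1 partner ATF7IP, rose (log2 change 1.36, SE 0.31, adjusted p = 0.0453), where 0.0552% of all genes fell and 1.21% rose. Atf7ip2 had 211, 284 and 345 normalised reads in 2i controls and 545, 731 and 1150 after knockdown, without overlap (2.89-fold). Atf7ip itself had 287, 665.5 and 183 in 2i controls and 1662, 792 and 791 after knockdown, also without overlap. Its mean was 2.86-fold higher in 2i and 2.94-fold higher in serum, where the groups overlapped, and it did not pass in either medium. Trim28, which encodes the corepressor that brings SETDB1 to retroviruses, had log2 changes of −0.27 in serum and −0.17 in 2i and did not pass (adjusted p = 1 and 0.960). Between media, Dnmt3a, a de novo DNA methyltransferase, was lower in 2i in control cells (−2.23, SE 0.46, adjusted p = 0.0144) and in knockdown cells (−2.85, SE 0.46, adjusted p = 0.00387). It had 1335, 1473 and 780.5 normalised reads in serum controls and 293, 281 and 114 in 2i controls, without overlap. Of all genes, 1.73% were higher and 1.88% lower in 2i in control cells, and 2.15% higher and 1.6% lower in knockdown cells. Suv39h1, an H3K9 methyltransferase, was lower in 2i in knockdown cells (−1.20, SE 0.30, adjusted p = 0.0371). The list's median log2 change was 0.09 in serum knockdown and −0.16 in 2i knockdown, beside medians near 0 for all genes tested.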

How the data were processed

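RNA of 12 libraries was analysed, 4 groups of 3. Values of repeat families and of genes were deposited by the authors on a log2 scale after variance stabilisation, 1 column a library. Tools listed in the submitters' processing notes are TopHat2 2.0.9, Trim Galore 0.3.3 and DESeq2 with no version, and the build listed is mm9. How reads were counted, which repeat annotation was used, and how multiply mapped reads and strand were handled is not given in the sources used here. No coordinates or consensus sequences are printed. The transformation was inverted, and 100% of values came out whole within 0.01 of a read. Normalised reads are these divided by the authors' size factor of the library, and they served for levels and folds. Their number limits the precision of low families. Read totals cover counting error only.

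Tests used the deposited values in limma 3.58.1 (R 4.3.3), with 1 mean per group, 8 residual degrees of freedom and a mean-variance trend. They were two-sided, with Benjamini-Hochberg adjustment over 1097 families or 14487 genes in each of 5 comparisons and a threshold of 0.05. The code was tested on simulated data.

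Replicate numbers are shared between groups. In the gene table, deviations of same-numbered control and knockdown libraries correlated in serum (r = 0.58, 0.23 and 0.51 for numbers 1 to 3) and, less evenly, in 2i (0.46, 0.06 and 0.52). In the repeat table they were 0.21, 0.04 and 0.24 in serum and 0.40, −0.02 and 0.46 in 2i. On the gene table every serum pair exceeded 0.1, so the numbers were taken to pair the serum libraries only. On the repeat table serum pair 2 did not exceed 0.1 (0.04). The main fit had no term for this pairing, and the fits with blocks were run as alternatives.

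Named families were all ORR1A and MTA families, every member that passed, the 4 highest and 4 lowest log2 changes of each comparison, the 3 members with most reads in each branch, MT-int, and the internal part with most reads. Changes of ORR1A and MTA families that did not pass are given for both knockdown comparisons and for medium in control cells. The members, lists and tests were chosen with earlier results of these data known. Alternatives were other filters, voom, other scalings, blocks, the libraries of the comparison alone, no trend, and leaving out each library. Median-of-ratios size factors were chosen after seeing the data.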

Additional observations from a re-analysis of the deposited data

How the results depend on the processing

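The number of members called depended on scaling. For knockdown in 2i, 6 members were called, and the count was 2 after centring, 3 when centring left out structural RNA, tRNA and MaLR families, and 2 with only the libraries of the comparison. For 2i against serum in control cells 36 were called, against 8 after centring, 9 when centring left out those families, 2 after quantile normalisation, 2 with median-of-ratios size factors and 18 with no mean-variance trend. For medium in knockdown cells 1 was called after centring (MLT1F1). Leaving out each library gave 2 to 8 calls for knockdown in 2i, 1 to 45 for medium in control cells, 0 to 5 for medium in knockdown cells, and 0 for knockdown in serum and for the difference of the changes. The cause was not tested. Counts over all families are given for the main, centred and block fits only. Member counts from the other fits are therefore not set against all families.

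With the replicate number as a block, 1 member was called in serum (ORR1A0) and 10 in 2i, which added ORR1A0-int, ORR1A3-int, MTD-int and MLT1J1 while 13.7% of all families rose. A block within each medium gave 1 rise in serum (6.2% of all families rose), 10 in 2i (14.6%) and 1 for the difference of the changes (1.91%). It gave 1 fall for medium in knockdown cells (2.01% fell). The last 2 were ORR1A3-int. The 2i libraries, and libraries across the 2 media, were not taken as paired, yet some same-numbered libraries correlated. In the repeat table r was 0.40, −0.02 and 0.46 between 2i control and 2i knockdown. Across media it was 0.37, 0.02 and 0.42 for knockdown libraries and 0.09, −0.11 and 0.18 for controls.

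The young-minus-MLT1 difference moved by less than 0.295 in all settings, which is wide beside the differences themselves. Leaving out each library gave 0.08 to 0.24 for knockdown in serum, 0.07 to 0.32 in 2i, −0.08 to 0.18 for their difference, and −0.08 to 0.23 and −0.01 to 0.14 for medium in control and knockdown cells. Setdb1 ranged from −2.56 to −2.12 in serum and from −2.51 to −1.91 in 2i.

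Signs of log2 changes that did not pass turned as follows. For knockdown in 2i, centring gave −0.12 for MTA_Mm, −0.35 for MTA_Mm-int and −0.19 for ORR1A4-int, beside a centred median of −0.12 for all families. Quantile normalisation gave −0.26, −0.45 and −0.40 for these, and −0.18 for ORR1A2-int, −0.12 for ORR1A3 and −0.088 for ORR1A4. Centring without structural RNA, tRNA and MaLR families gave −0.13, −0.36 and −0.20 for MTA_Mm, MTA_Mm-int and ORR1A4-int, median-of-ratios factors −0.085, −0.32 and −0.15, and voom −0.011 for MTA_Mm-int. For knockdown in serum, ORR1A3 was −0.049, −0.14 and −0.13 under the first 3 scalings, and ORR1A1 −0.083 under the second and −0.054 under the third. For medium in control cells, ORR1A2-int was 0.11, 0.29, 0.12 and 0.31 under the 4 scalings, and median-of-ratios factors gave 0.10 for MTA_Mm-int, 0.016 for ORR1A1-int, 0.033 for ORR1A2 and 0.064 for ORR1A4-int.

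Leaving out single libraries also turned signs. In serum the ranges were −0.22 to 0.13 for MTA_Mm, −0.43 to 0.20 for MTA_Mm-int, −0.070 to 0.24 for ORR1A1, −0.089 to 0.071 for ORR1A2, −0.25 to 0.033 for ORR1A2-int, −0.11 to 0.12 for ORR1A3, −0.11 to 0.018 for ORR1A4 and −0.23 to 0.12 for ORR1A4-int. In 2i they were −0.033 to 0.43 for MTA_Mm, −0.50 to 0.49 for MTA_Mm-int, −0.018 to 0.45 for ORR1A4-int and −0.50 to 0.028 for MLT1A1. For medium in control cells they were −0.37 to 0.26 for ORR1A0-int, −0.091 to 0.64 for MLT1F1-int, −0.12 to 0.30 for MLT1G-int and −0.29 to 0.58 for MLT1J1-int. For the difference of the changes MLT1B-int ranged from −0.83 to 0.088. Depth limits MLT1 internal parts, with at most 1281 reads over 12 libraries.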

Other observations

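MT LTRs are known promoters of oocyte transcripts, and oocyte genes were listed for that reason. All 10 were in the gene table, but only 2 had enough reads to be tested and 0 of these passed in any comparison. Zp1, Zp2 and Oosp1 were at 0 in all libraries. The summed level of the list was 20.0 to 123 normalised reads per library, highest in 2i knockdown replicate 1, where Zp3, which encodes a zona pellucida protein, had 119.

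Primitive endoderm markers, 9 in the table and 7 tested, did not pass in any comparison. Their sum was 1502 to 1730 normalised reads in serum controls, 419 to 1614 in serum knockdown, 1222 to 1704 in 2i controls and 453.5 to 1672 in 2i knockdown, most of it Lama1, which encodes a laminin chain.

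Of the members, 3 had no read in any library, the internal parts MLT1E1-int, MLT1K-int and MLT1L-int.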
